A study of Mus musculus with 8 samples.

Results

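Tyrosine hydroxylase (Th), aromatic amino acid decarboxylase (Ddc), dopamine beta-hydroxylase (Dbh), the vesicular monoamine transporter VMAT2 (Slc18a2), the noradrenaline reuptake transporter (Slc6a2) and monoamine oxidase A (Maoa) make, store, recapture and degrade catecholamines. Choline acetyltransferase (Chat), the vesicular acetylcholine transporter (Slc18a3) and acetylcholinesterase (Ache) make, store and break down acetylcholine. These 9 genes were chosen by name, with earlier results of these data known, and all 9 have a row among the 55367 genes of the count table. Of the 9, 6 passed the filter on low counts and were tested: Th, Ddc, Dbh, Slc18a2, Chat and Ache. The other 3 were Slc6a2 and Maoa, which had 0 counts in every library, and Slc18a3, which had counts in 1 library.

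The study used Neuro2a, a mouse neuroblastoma cell line, transfected for CRISPR activation (CRISPRa) of a chosen gene. A nuclease-dead Cas9 from Staphylococcus aureus (sadCas9) fused to the transcriptional activator VP64 is brought to that gene by a guide RNA (sgRNA), here for the sodium channel gene Scn2a. For CRISPRa, 750 ng of plasmid for the guide was given together with 750 ng for sadCas9-VP64. Control cultures (no sgRNA) received sadCas9-VP64 only, in an amount the labels do not give. Both groups therefore carried the activator. They differed in the sgRNA plasmid, and may also have differed in the amount of activator plasmid or of total plasmid. A guide effect and an effect of these plasmid amounts cannot be told apart. The labels list 8 samples. Counts were analysed for 6 libraries of poly(A)-enriched RNA, which are replicates 2, 3 and 5 of CRISPRa and 2, 3 and 4 of no sgRNA. All come from 1 cell line, and nothing in the labels says that replicates are separate cultures, so p-values measure the spread between these libraries, which may be technical.

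Noradrenergic neurons and chromaffin cells turn tyrosine into DOPA with tyrosine hydroxylase, DOPA into dopamine with the decarboxylase, and dopamine into noradrenaline inside vesicles with dopamine beta-hydroxylase. A vesicular monoamine transporter fills the vesicles, and released transmitter is taken back by a plasma membrane transporter and oxidised by monoamine oxidase. Cholinergic neurons instead use choline acetyltransferase, the vesicular acetylcholine transporter and a choline uptake transporter. Acetylcholinesterase hydrolyses acetylcholine and is also made by cells that release no acetylcholine, so it does not define the transmitter of a cell. Neuroblastoma arises from the sympathoadrenal lineage of the neural crest, whose cells are mainly noradrenergic, with a cholinergic minority.

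Total counts ran from 29739422 to 34248514 per library. Each group held a closer pair, replicates 2 and 3, with a chi-square per degree of freedom of 4.73 (CRISPRa) and 5.98 (no sgRNA). CRISPRa replicate 5 stood apart from the others of its group at 17.1 and 15.7, as did no-sgRNA replicate 4 at 16.6 and 14.1. The targeted gene Scn2a reached 267, 279 and 231 counts with CRISPRa against 190, 193 and 130 without the guide (log2 fold change 0.48, edgeR adjusted p 0.0899). Of 10 neuronal and neuroendocrine marker genes 9 were at or above 1 TPM (transcripts scaled by gene length and library) in the no-sgRNA libraries, and Nefm, a neurofilament gene, had at most 6 counts. The list's summed level was 2081 to 2172 CPM (counts scaled to library size) with CRISPRa and 1873 to 1980.3 CPM without the guide. The 6 Schwann cell and glial markers summed to 2.69 to 4.29 CPM over all 6 libraries, and Sox10 and Aqp4 had at most 6 counts. The 5 macrophage and leukocyte markers summed to 0.758 to 1.65 CPM, with Itgam at 0 counts throughout and Ptprc at most 2. The 6 fibroblast markers summed to 14.6 to 21.4 CPM with CRISPRa and 28.6 to 32.4 CPM without, most of it from Pdgfra and Col1a2, while Col3a1 had 0 counts. The 3 endothelial markers summed to 7.43 to 10.9 CPM with CRISPRa and 9.56 to 13.3 CPM without, with Kdr at 0. The other members went in opposite directions. Cdh5 was higher with CRISPRa on few counts (log2 fold change 2.04, edgeR adjusted p 0.0105), and Pecam1 was lower without passing the test (-0.47, edgeR adjusted p 0.103).

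RefSeq promoter windows (GRCm38.p6), from 250 bases before to 50 after an annotated start, were matched by symbol for 8 of the 9 genes in 9 windows, and none for Slc6a2. The upstream parts of the Th and Slc18a2 windows are shown because these were the 2 members whose window holds the complete palindromic cAMP response element TGACGTCA, in capitals below. They also contrast in the counts, since Slc18a2 rose with CRISPRa and Th did not pass the test. Th is on the minus strand at chr7:142899996-142900245, ending at the base before the start, and Slc18a2 on the plus strand at chr19:59260628-59260881, ending 4 bases after the start.
Th: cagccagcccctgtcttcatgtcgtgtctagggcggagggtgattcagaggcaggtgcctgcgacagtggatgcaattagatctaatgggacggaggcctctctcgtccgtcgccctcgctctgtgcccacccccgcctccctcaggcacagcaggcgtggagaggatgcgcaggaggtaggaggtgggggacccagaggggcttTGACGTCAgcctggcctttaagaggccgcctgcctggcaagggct
Slc18a2: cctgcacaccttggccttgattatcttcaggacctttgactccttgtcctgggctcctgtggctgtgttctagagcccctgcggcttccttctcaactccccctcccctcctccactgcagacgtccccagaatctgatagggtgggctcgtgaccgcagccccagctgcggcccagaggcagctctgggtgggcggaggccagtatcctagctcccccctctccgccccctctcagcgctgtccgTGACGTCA

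The element begins 45 bases before the Th start and 4 bases before the Slc18a2 start. Both strands were searched, and TGACGTCA occurred in 1.79% of all 32851 windows of this length. The shorter form TGACG, which the complete element contains, was in 6 of the 9 windows (those of Th, Dbh, Slc18a2, Maoa, Chat and Slc18a3) and in 20.8% of all windows. The AP-1 sequence TGANTCA was in the Th window and in 1 of the 2 Ddc windows, against 7.81% of all windows. The E-box CANNTG was in 7 of the 9 windows and 72.3% of all. Neither the palindromic paired-like homeodomain sequence (0.487% of all windows) nor the interferon-stimulated response element core (3.44%) was found in the 9 windows. Some upstream parts lie in GENCODE exons. This holds for all 250 upstream bases of the Dbh window, 80 of Chat, 59 of Slc18a3, 54 of Ache and 19 of Th. The matches are letter matches in fixed windows and no measure of binding.

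At baseline the line held transcripts of every step of noradrenaline synthesis and storage, and almost none of acetylcholine synthesis and storage. Levels are given as TPM, which divides counts by gene length, in the 3 no-sgRNA libraries. Dbh was the highest member at 75.1 ± 8.77 TPM (SD, n = 3), followed by Ache at 69.5 ± 4.31 TPM, Slc18a2 at 47.4 ± 1.18 TPM, Th at 12.5 ± 1.46 TPM and Ddc at 4.94 ± 0.704 TPM (SD, n = 3). Chat lay at 0.277 ± 0.266 TPM (SD, n = 3), and Slc6a2, Maoa and Slc18a3 had 0 counts in all 3 libraries. In this order the ranges of Dbh and Ache overlapped, while each of the steps from Ache to Slc18a2, Th, Ddc and Chat separated genes whose 3 libraries did not overlap. Th, Ddc, Dbh and Slc18a2 together made up 65.9%, 66.9% and 67.3% of the summed TPM of the 9 genes in replicates 2, 3 and 4. Ache made up 33.9%, 32.9% and 32.7%, and Chat with Slc18a3 made up 0.147%, 0.236% and 0. Ddc and Slc18a2 also serve other monoamines, so the first of these shares is not particular to noradrenaline. Among the tested genes 82.8% had a lower mean TPM than Dbh, 73.2% than Slc18a2, 42.1% than Th, 27.6% than Ddc and 2.01% than Chat.

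**Figure D1:**
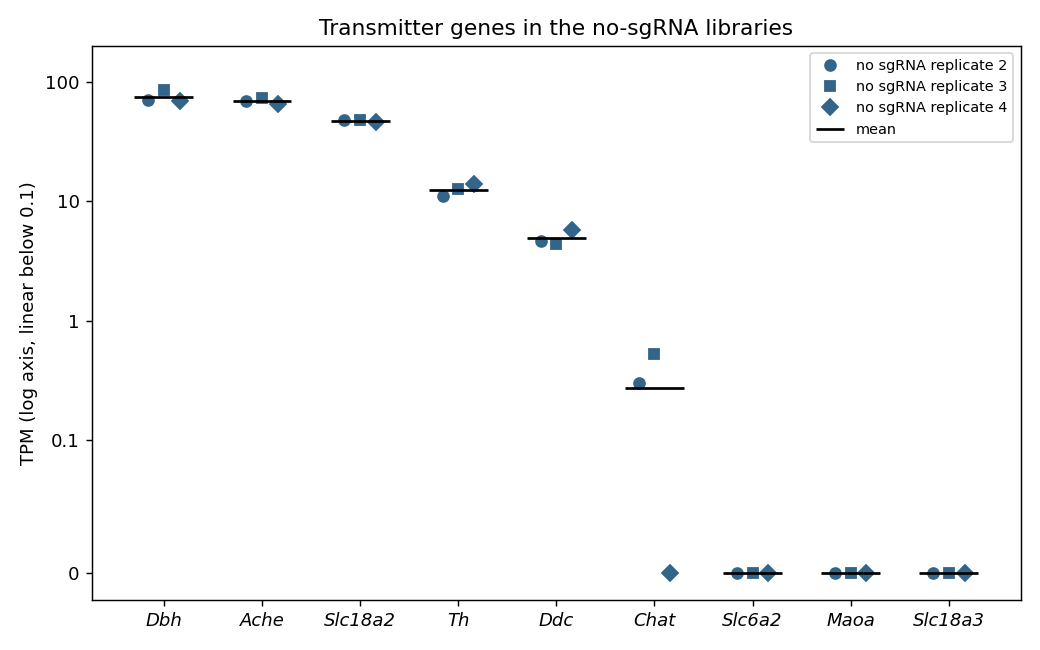
Level in TPM (vertical axis, logarithmic and linear below 0.1) of the 9 genes in no-sgRNA replicates 2, 3 and 4 (points), with the mean as a line, ordered by mean. Dbh, Ache and Slc18a2 lie above 40 TPM, Th and Ddc between 4 and 14 TPM, Chat below 0.6 TPM, and Slc6a2, Maoa and Slc18a3 at 0.

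The synthesis enzymes stood at unequal levels. Dbh, which carries out the last step to noradrenaline, exceeded Th, the rate-limiting first enzyme, by 6.47, 6.71 and 4.96 times in TPM in no-sgRNA replicates 2, 3 and 4. Ddc, which serves both catecholamine and serotonin synthesis, was the lowest of the 3 enzymes in each library. With CRISPRa the Dbh to Th ratio was 5.61, 7.27 and 6.48, within reach of the no-sgRNA values (exact two-sided permutation p = 0.6).

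Slc18a2 was the 1 member that changed with CRISPRa. Its counts were 3259, 3248 and 3247 in CRISPRa replicates 2, 3 and 5, and 2140, 2110 and 2254 in the control replicates 2, 3 and 4. Scaled to a common library size this was 94.6, 99.5 and 100.1 CPM against 70.1, 71.1 and 71.2 CPM, so that every CRISPRa library lay above every control. The mean rose 1.38-fold, from 70.8 ± 0.576 to 98.1 ± 3.02 CPM (SD, n = 3). On the log2 scale this was 0.47 (SE 0.07), and edgeR's quasi-likelihood test over all tested genes gave an adjusted p of 0.000191. The exact two-sided permutation test over libraries gave p = 0.1, the smallest that 3 against 3 allows. Slc18a2 (chromosome 19, 59260896 to 59296012, plus strand, protein coding, GRCm38) encodes VMAT2, which loads monoamines into vesicles. Its gene model shares 2.12% of its exonic bases with the opposite-strand gene Gm29261, which had 0 counts in all libraries, and none of its 50-base words occurs in another gene's transcripts. The increase passed the threshold in all 19 alternatives run, from 0.46 to 0.51, and without CRISPRa replicate 5 it was 0.46. For Slc18a2 the authors' deposited table, made on 8 samples, lists 0.44 on the log2 scale and an adjusted p of 2.72e-15. Of all 15117 tested genes, 18.7% were called changed and 9.47% called higher and 9.25% called lower, so 1 changed member of 6 tested is near the background share. The summed neuronal markers were also higher and the summed fibroblast markers lower in every CRISPRa library (values above), and their part in the Slc18a2 difference was not tested. In bulk RNA, a change in the share of cells that express a gene and a change of RNA per cell cannot be told apart.

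**Figure D2:**
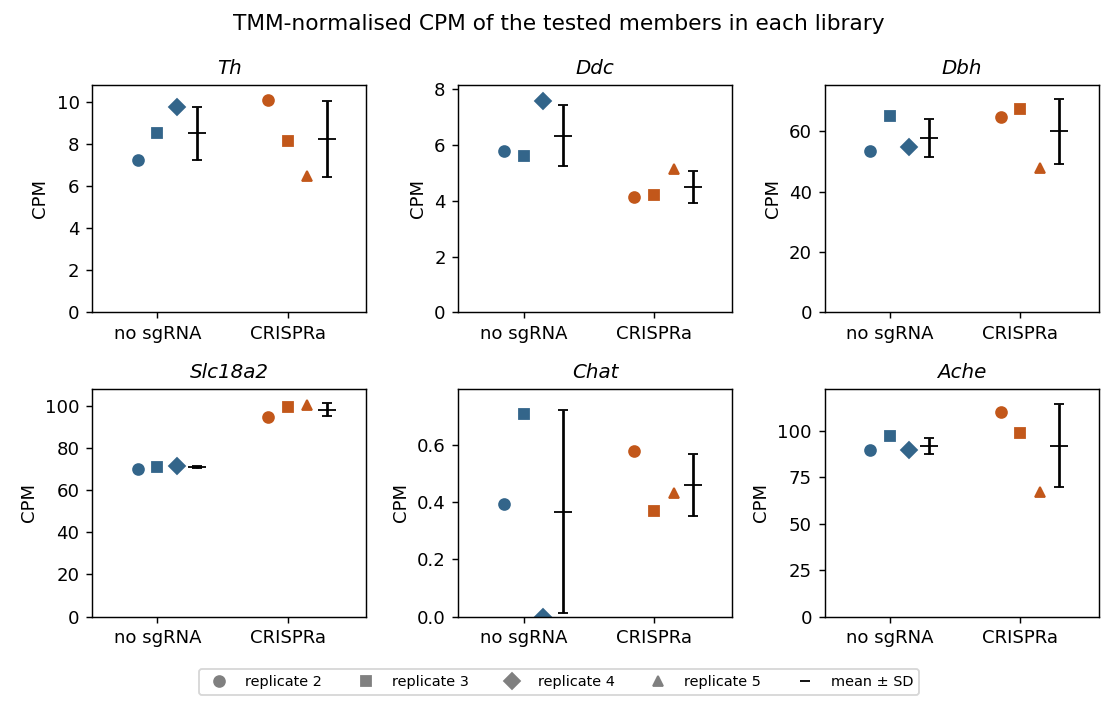
TMM-normalised CPM (vertical axes, starting at 0) of the 6 tested genes in each no-sgRNA and CRISPRa library, with one marker shape per replicate number and the mean ± SD beside the points. The Slc18a2 groups are separated at 70.1 to 71.2 and 94.6 to 100.1 CPM, the Ddc groups are separated in the other direction, and those of Th, Dbh, Chat and Ache overlap.

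Ddc, the decarboxylase, was lower in each CRISPRa library but did not pass the threshold. It was at 4.15, 4.20 and 5.15 CPM in CRISPRa replicates 2, 3 and 5 and at 5.80, 5.59 and 7.58 CPM in no-sgRNA replicates 2, 3 and 4. The groups did not overlap, as was the case for 36.4% of all tested genes, and the exact permutation p was 0.1. The difference was -0.49 on the log2 scale (SE 0.19, edgeR adjusted p 0.0845), with adjusted p-values between 0.0658 and 0.287 in the alternatives run. For Ddc the authors' deposited table on 8 samples lists -0.48 and an adjusted p of 0.0245, which is past 0.05. Ddc (chromosome 11, 11814101 to 11898144, minus strand) had between 137 and 240 counts per library, the lowest depth among the catecholamine members that were detected. Slc18a2 and Ddc thus lay on opposite sides, and the TPM ratio of Slc18a2 to Ddc was 16.6 to 20.2 with CRISPRa and 8.02 to 10.9 without. That ratio was formed after the values were seen and is given as a description, since groups that separate in opposite directions for the 2 genes also separate in their ratio.

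Th and Dbh showed no difference beyond the spread between libraries. Th (chromosome 7, 142892752 to 142931128, minus strand) was at 10.1, 8.15 and 6.47 CPM in CRISPRa replicates 2, 3 and 5 and at 7.24, 8.52 and 9.73 CPM in no-sgRNA replicates 2, 3 and 4. The CRISPRa libraries held both the highest and the lowest value, and the log2 difference of -0.04 (SE 0.18, edgeR adjusted p 0.902) turned to 0.11 without CRISPRa replicate 5 and to 0.07 without no-sgRNA replicate 4. Dbh (chromosome 2, 27165233 to 27183200, plus strand) was at 64.7, 67.5 and 47.8 CPM against 53.4, 65.1 and 54.9 CPM. Its log2 difference was 0.05 (SE 0.12, edgeR adjusted p 0.793), and 0.20 without CRISPRa replicate 5, the library that was lowest for both Th and Dbh, with an adjusted p of 0.159. Th and Dbh have adjusted p-values of 0.751 and 0.78 in the authors' deposited table.

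The members for reuptake and oxidation were not detected. Slc6a2 (chromosome 8, 92960079 to 93001667), the noradrenaline transporter, had 0 counts in all 6 libraries, and so did Maoa (chromosome X, 16619698 to 16687818), which oxidises noradrenaline and serotonin. A count of 0 allows up to 3 counts, or 0.0876 to 0.101 CPM depending on the library. In TPM of the no-sgRNA libraries the limit was 0.0509 to 0.0566 for Slc6a2 and 0.0768 to 0.0854 for Maoa. Maob, the second monoamine oxidase, also had 0 counts throughout, and Slc6a3, the dopamine transporter, had 2 counts in 1 CRISPRa library. These limits cover counting error only and treat each count as an independent event. Most low values were even numbers (shares given with Chat), and if both reads of a pair were counted, the limits would be higher than those given. Neither Slc6a2 nor Maoa is listed in the authors' deposited table.

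Of the acetylcholine members Ache was abundant and the others were close to or at 0. Chat (chromosome 14, 32408203 to 32465989, minus strand) had 20, 12 and 14 counts in CRISPRa replicates 2, 3 and 5, against 12, 21 and 0 in control replicates 2, 3 and 4. The groups overlapped. The log2 difference was 0.34 (SE 0.78, edgeR adjusted p 0.813), and its sign turned to -0.25 without no-sgRNA replicate 4, the library with 0 counts. Slc18a3 (chromosome 14, 32462438 to 32464850, minus strand), which lies inside the Chat span and shares no exonic base with it, had 12 counts in CRISPRa replicate 3 and 0 in the other 5 libraries. Between 72.0% and 74.3% of the values from 1 to 20 in each library were even numbers. Whether a count is a read or a fragment is not given in the sources used here and was not tested, so the number of fragments behind the low counts of Chat and Slc18a3 is not known. The summed TPM of Th, Ddc, Dbh and Slc18a2 was 449.7 times that of Chat and Slc18a3 in no-sgRNA replicate 2 and 283 times in replicate 3. In no-sgRNA replicate 4 both Chat and Slc18a3 were at 0, so no ratio could be formed. These ratios are imprecise, since their denominators rest on 12 and 21 Chat counts.

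Ache (chromosome 5, 137287519 to 137294466, plus strand), which encodes the enzyme that hydrolyses acetylcholine, was at 109.9, 98.8 and 67.0 CPM in CRISPRa replicates 2, 3 and 5 and at 89.4, 97.0 and 89.4 CPM in no-sgRNA replicates 2, 3 and 4. CRISPRa replicates 2 and 3 lay above all controls and replicate 5 below all of them, and the group means were equal at 91.9 ± 22.2 and 91.9 ± 4.4 CPM (SD, n = 3). The log2 difference was -0.000313 (SE 0.13, edgeR adjusted p 0.999), a value so near 0 that its sign turned under other scalings (0.01 with median-ratio scaling). Without CRISPRa replicate 5 it was 0.19 with an adjusted p of 0.107, so 1 library set the value. For Ache the authors' deposited table lists 0.16 on the log2 scale, with an adjusted p of 0.202.

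Of the tested genes with a mean of at least 1 CPM, the 3 whose log2 CPM followed Dbh most closely over the 6 libraries were S100a7a (Pearson r = 0.9932), Plekhg2 (r = 0.9809) and Synm (r = 0.9806). For Ache they were Celf3 (r = 0.9972), Fgf1 (r = 0.9963) and Slc8a1 (r = 0.9949). These coefficients are descriptions over 6 libraries, picked as the highest among 12857 genes. None of the 6 genes was called changed (edgeR adjusted p from 0.844 to 0.969). That follows from the choice, since they were picked to follow Dbh or Ache, which were not called either.

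Other genes of catecholamine metabolism were mostly present. Of 14 listed genes 11 passed the filter, of which 2 rose, 2 fell and 7 did not pass the test, beside 18.7% called over all tested genes. The median log2 fold change was -0.14 beside -0.0071 over all tested genes. Gch1, the first enzyme of the tetrahydrobiopterin cofactor that Th needs, was at 125.0 ± 3.62 TPM without the guide (SD, n = 3), 8.70 to 11.4 times Th. It rose from 223 ± 4.85 to 259 ± 15.5 CPM (log2 fold change 0.21, edgeR adjusted p 0.0298). Pts, the next enzyme of that pathway, rose from 6.98 ± 1.14 to 9.67 ± 0.16 CPM (0.47, adjusted p 0.0429). The cofactor-recycling enzyme gene Pcbd1 fell from 56.8 ± 4.47 to 45.3 ± 3.51 CPM (-0.33, edgeR adjusted p 0.0154), while Qdpr, which also recycles the cofactor, differed by -0.16 (log2, edgeR adjusted p 0.271). Aldh2, an aldehyde dehydrogenase, fell from 124 ± 4.21 to 104 ± 5.84 CPM (-0.26, edgeR adjusted p 0.0141). These 4 calls were lost when certain single libraries were left out, with edgeR adjusted p-values up to 0.0902 for Gch1 (without CRISPRa replicate 3 or 5 or no-sgRNA replicate 2 or 3), 0.134 for Pts (without any but no-sgRNA replicate 2), 0.0629 for Pcbd1 (without CRISPRa replicate 3 or 5 or no-sgRNA replicate 4) and 0.0625 for Aldh2 (without CRISPRa replicate 5 or no-sgRNA replicate 3). Pcbd1 was at -0.21 with an adjusted p of 0.0712 when each library's gene-length trend was removed. Slc18a1, encoding VMAT1, was at 1.46 ± 0.211 TPM in the controls, so Slc18a2 exceeded it 28.1 to 38.9 times. Its log2 fold change of -0.66 had an edgeR adjusted p of 0.146. Gchfr, which regulates Gch1 activity (69.7 TPM), Spr, the last enzyme of cofactor synthesis (23.1 TPM), Rnls (7.96 TPM) and the vesicle membrane gene Cyb561 (71.0 TPM) were also present in the controls and did not pass the test. Pnmt, which turns noradrenaline into adrenaline, had 0 counts in every library.

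**Figure D3:**
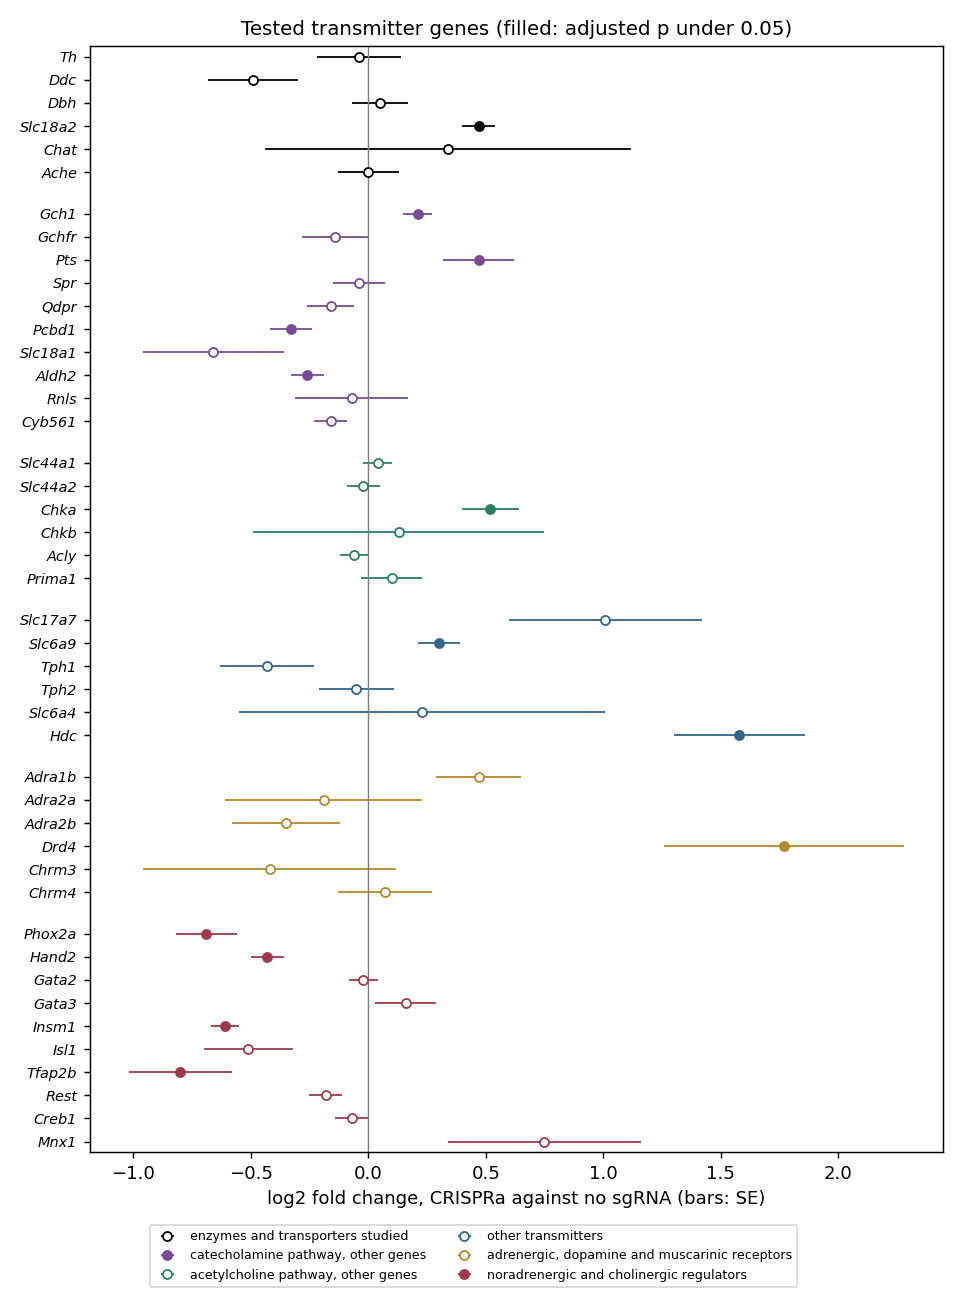
Log2 fold change of CRISPRa against no sgRNA (horizontal axis) with its SE for the tested genes of the 9 and those reported here of the 5 other lists, 1 colour per list, filled where the edgeR adjusted p was under 0.05. Slc18a2 at 0.47 is the filled point among the 6 tested members, and Hdc at 1.58 and Drd4 at 1.77 lie farthest to the right.

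In the acetylcholine list, most genes with general roles in choline and acetyl-CoA metabolism were present. The choline kinase gene Chkb was an exception, at 0.405 ± 0.263 TPM in the controls. Slc5a7, which is particular to cholinergic nerve endings, was nearly absent. Of 9 listed genes 6 were tested, 1 rose and 5 did not pass, with a median log2 fold change of 0.07. Of all tested genes 18.7% were called. Chka, a choline kinase of phospholipid synthesis, rose from 36.2 ± 4.66 to 52.0 ± 9.04 CPM (SD, n = 3, log2 fold change 0.52, edgeR adjusted p 0.00646) and passed in all 19 alternatives, with a smaller value of 0.30 in the 4 libraries numbered 2 and 3. Acly, which makes cytosolic acetyl-CoA, was at 337 ± 11.2 TPM and the choline transporter-like gene Slc44a1 at 59.3 ± 1.28 TPM in the controls, and the related Slc44a2 at 35.1 ± 2.32 TPM. Prima1, which anchors acetylcholinesterase in neuronal membranes, was at 62.5 ± 8.0 TPM, near the level of Ache. Slc5a7, the high-affinity choline uptake transporter of cholinergic endings, had 2 counts in 1 library, and Bche, the related butyrylcholinesterase, had 0 counts.

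Genes of other transmitters were compared to see which further types the line showed. The vesicular transporters of glutamate Slc17a6 and Slc17a8, the GABA enzyme Gad1 and the glycine transporter Slc6a5 had 0 counts, and Gad2 and the vesicular GABA transporter Slc32a1 had at most 2. Slc17a7 was below 1 TPM in the controls (0.456 ± 0.18 TPM, SD, n = 3). The tryptophan hydroxylases of serotonin synthesis, Tph1 at 6.03 ± 0.375 TPM and Tph2 at 10.0 ± 1.37 TPM, had lower means than Th at 12.5 TPM. The control libraries of Tph2 overlapped those of Th, and those of Tph1 did not. Tph1 and Tph2 serve the same step, so a comparison of either alone with Th does not give the level of that step. With Ddc and Slc18a2, transcripts for serotonin synthesis and storage were present too. The serotonin transporter Slc6a4 had at most 18 counts. Of 14 listed genes 7 were tested, 3 rose and 4 did not pass, with a median log2 fold change of 0.27. Of all tested genes 9.47% were called higher. Hdc, the histamine-forming decarboxylase, rose from 2.06 ± 0.846 to 6.18 ± 1.44 CPM (SD, n = 3), 2.99-fold (log2 fold change 1.58, edgeR adjusted p 0.00119), in all 19 alternatives. Slc6a9, a glycine transporter, rose by 0.30 (edgeR adjusted p 0.0262), and without CRISPRa replicate 5 or no-sgRNA replicate 4 it was at 0.27 or 0.19 with an adjusted p of 0.072 or 0.0713.

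**Figure D4:**
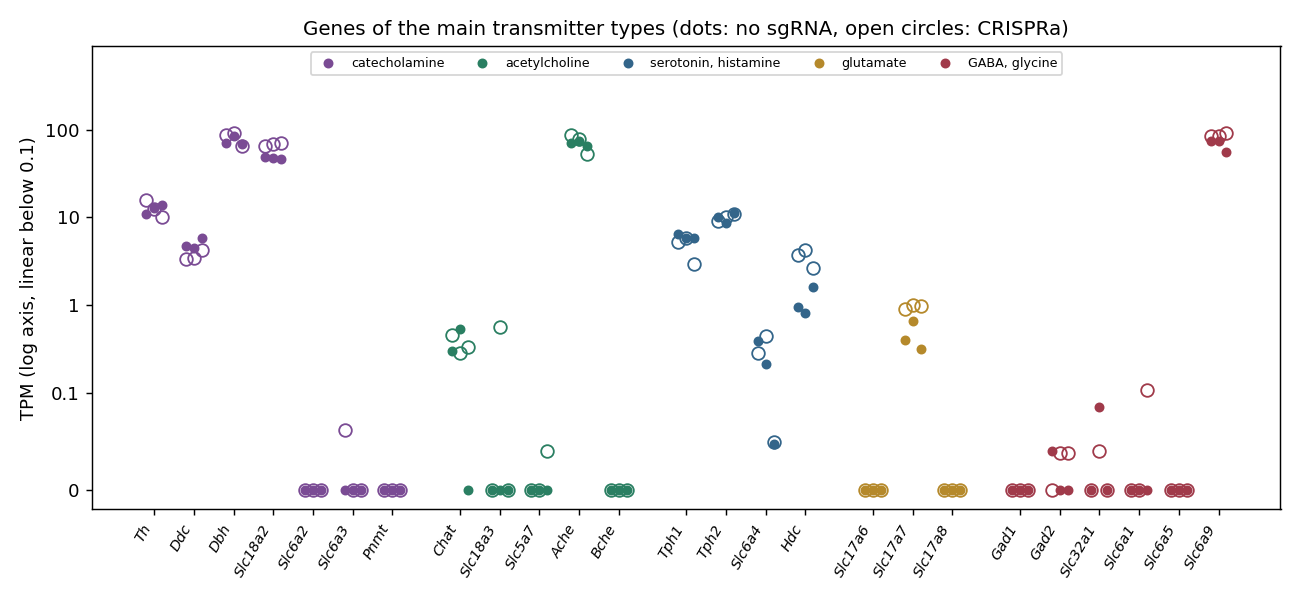
Level in TPM (vertical axis, logarithmic and linear below 0.1) of enzyme and transporter genes grouped by transmitter, with 1 filled dot per no-sgRNA library and 1 open circle per CRISPRa library. Th, Ddc, Dbh, Slc18a2, Ache, Tph1, Tph2 and Slc6a9 lie above 1 TPM in every library, while Slc6a2, Pnmt, Bche, Slc17a6, Slc17a8, Gad1 and Slc6a5 lie at 0.

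Of 19 adrenergic, dopamine and muscarinic receptor genes 10 had at most 3 counts in any library, and 6 were tested. Adra1b (7.81 ± 2.40 TPM), Adra2b (7.88 ± 1.26 TPM) and Chrm4 (16.2 ± 3.51 TPM; SD, n = 3) were the receptors of this list at or above 1 TPM in the controls, and none of these passed the test. Drd4, a dopamine receptor with 6 to 16 counts in the controls and 26 to 54 with CRISPRa, rose 3.41-fold (log2 fold change 1.77, SE 0.51, edgeR adjusted p 0.0245). Its adjusted p went up to 0.0955 when 1 library was left out, and the call was lost without CRISPRa replicate 2 or 3 or no-sgRNA replicate 2 or 4.

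Several transcription factors that act upstream of Th and Dbh in sympathetic neurons were lower with CRISPRa. Of 13 listed regulators 11 were tested, 4 fell, none rose and 7 did not pass, with a median log2 fold change of -0.18. Of all tested genes 9.25% were called lower. Phox2a, a homeodomain factor of noradrenergic neurons, was at 212, 211 and 132 CPM in CRISPRa replicates 2, 3 and 5 and at 281, 292 and 319.7 CPM in no-sgRNA replicates 2, 3 and 4. It fell by 0.69 on the log2 scale (SE 0.13, edgeR adjusted p 0.00204). Hand2 fell from 414 ± 16.9 to 306 ± 22.6 CPM (SD, n = 3, log2 fold change -0.43, edgeR adjusted p 0.000507) and Insm1, a factor of sympathoadrenal progenitors, from 289 ± 12.6 to 189 ± 7.45 CPM (-0.61, edgeR adjusted p 9.41e-06). Phox2a, Hand2 and Insm1 passed in all 19 alternatives, Phox2a at -0.44 in the 4 libraries numbered 2 and 3. Tfap2b fell by 0.80 (edgeR adjusted p 0.0212), and lost its call without CRISPRa replicate 5 or no-sgRNA replicate 2 or 4. Gata2 (152 TPM), Rest (45 TPM), Creb1 (16.5 TPM), Gata3 (13.6 TPM), Isl1 (8.05 TPM) and Mnx1 (1.18 TPM) were present in the controls and did not pass the test. For Rest the authors' deposited table on 8 samples lists -0.21 and an adjusted p of 0.00796, and for Creb1 -0.16 and 0.0426. Gata2, Gata3, Isl1 and Mnx1 have adjusted p-values above 0.05 there. Lhx8, a factor of forebrain cholinergic neurons, had 0 counts. Over the 5 lists together, 13 of 41 tested genes were called, 7 higher and 6 lower, beside 18.7% of all tested genes, and these lists are a description of chosen genes.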

How the data were processed

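Poly(A)-enriched RNA of Neuro2a cells was sequenced. The authors deposited whole-number counts per gene for 6 libraries, with summed exon lengths, per the file headers. STAR 2.5.1b, featureCounts and genome mm10 are named in the submitters' processing notes; strand use and multi-mapping are not given in the sources used here. A second table holds the authors' own DESeq2-style comparison, described by its name as made on 8 samples. Per the file headers it has a signal (mean normalised count), log2 fold changes, a Wald score and p-values. Its contrast is not stated. All 2589 genes called in both analyses had the same sign, so it was read as CRISPRa against no sgRNA. Counts of the remaining 2 samples were not analysed here.

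The quasi-likelihood fit (glmQLFit, glmQLFTest, no covariate) used edgeR 4.0.16 under R 4.3.3, after filterByExpr and trimmed mean of M-values (TMM) scaling. P-values were Benjamini-Hochberg adjusted over 15117 genes and called at 0.05. SE is the log2 fold change divided by the square root of F. CPM is TMM-normalised. TPM was computed from counts and exon lengths. Coordinates are those of GENCODE M21 (GRCm38), with the same spans in the count table for all 9 genes. The script was tested on simulated data.

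Members and lists were chosen with earlier results of these data known. Named genes are the 9 members and, from the other lists, every called gene, every gene at or above 1 TPM in the controls and those defining a transmitter type, apart from some listed genes that are counted but not reported here; the genes most like Dbh and Ache are the 3 highest correlations (log2 CPM, prior count 2). Alternatives were other scalings, filters, tools (DESeq2 1.42.0, limma-voom of limma 3.58.1) and thresholds, a replicate block, leaving out each library, and removal of the gene-length trend. Halving the counts was chosen after seeing the data.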

Additional observations from a re-analysis of the deposited data

How the results depend on the processing

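The number of changed members stayed at 1, Slc18a2, in 18 of 19 alternatives, and was 2 at an adjusted p under 0.1, where Ddc (-0.49) was added by the threshold itself. Leaving out 1 library gave 1 changed member each time. The number of members whose groups did not overlap was 2 of 6 tested under both scalings tried, beside 36.4% of all tested genes. Of the other listed genes 13 were changed, and 5 at an adjusted p under 0.01. The number was from 7 (without CRISPRa replicate 5) to 12 when 1 library was left out, with 8 without no-sgRNA replicate 4. Each of these runs had 1 library fewer, and why their numbers differed was not tested. The share of Th, Ddc, Dbh and Slc18a2 in the summed level of the members, 66.7% in TPM, was 60.8% in CPM, where gene length is not divided out. It was 66.4% to 67.1% when 1 control was left out. Replicate numbers 2 and 3 occur in both groups. The difference of replicate 2 from replicate 3 did not go together between the groups (correlation 0.0045 across 15117 genes, which are not independent). This check cannot see anything that replicates 2 and 3 of both groups have in common, and they were the closer pair in each group. Whether equal numbers mark a shared batch was not tested. With the replicate block on those 4 libraries 1 member and 10 other listed genes were changed, against 1 and 9 without the block.

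Signs turned for members near 0. For Ache the values were 0.01 (median-ratio scaling, no filter, the CPM filter, DESeq2, the gene-length trend removed, halved counts), 0.00339 (upper quartile), 0.02 (library size only) and 0.16 with the replicate block and without it on 4 libraries, with a range of -0.14 to 0.19 when 1 library was left out. For Th they were 0.21 with the replicate block, 0.22 on the same 4 libraries, 0.02 with the length trend removed, and -0.21 to 0.11 with 1 library out. For Dbh the values with 1 library out were -0.03 to 0.20, with -0.00112 without no-sgRNA replicate 2. For Chat they were -0.19 with the replicate block, -0.21 on the same 4 libraries, and -0.25 to 1.22 with 1 library out. Depth limits Chat, Slc18a3 and Drd4, which rest on few counts.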

Other observations

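The count table has a separate row for Mir8116, a 97-base locus (chromosome 5, 137293780 to 137293876, GRCm38) on the same strand as Ache, in the intron between the Ache exons that end at 137293337 and start at 137294117. It was looked at after the values were seen. The row had 101, 76 and 32 counts in CRISPRa replicates 2, 3 and 5 and 79, 83 and 75 counts in no-sgRNA replicates 2, 3 and 4. This was 2.67, 2.36 and 1.47 counts per 100 Ache counts with CRISPRa, and 2.90, 2.88 and 2.65 without the guide. The row was lowest in CRISPRa replicate 5, as Ache was. Its log2 fold change was -0.31 (SE 0.34, edgeR adjusted p 0.582). Reads assigned to this row in poly(A)-enriched RNA are not counts of a mature miRNA, and they are not part of the Ache counts given above.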
